A study of Mus musculus with 3 samples.

Results

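The cells described here are tumor-infiltrating NK cells with the highest combined share of *Ccl1*, *Crtam*, *Cd83* and *Nfkbid* transcripts, selected on these 4 genes. Within each library, NK cells were ranked by the sum of their unique molecular identifiers (UMIs) for the 4 genes, divided by all UMIs of the cell. The top 10% were taken, which gave 777 of 7777 NK cells, out of 34781 cell barcodes in all. They are called 4-gene-high NK cells below and members in the plots. They were compared with the 3763 NK cells of the same libraries that held no UMI of any of the 4 genes, called 4-gene-negative NK cells. The 4 genes were left out of every test between these groups, except where one of them was removed from the ranking. Because both groups were chosen by expression, the tests describe which other genes differ along this ranking.

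The study asked how NK cells change while they stay in a tumor. MC38-Ova colorectal carcinoma cells (250000 per mouse) had been injected under the skin of the left flank of wild-type C57BL/6 Kaede mice, which carry a photoconvertible fluorescent protein in their cells. Tumors were illuminated on day 13 and taken on day 15, so that cells that were in the tumor at illumination were red (KR+) and cells that entered during the following 48 h were green (KG+). Single-cell libraries of transcript 3′ ends of sorted tumor-infiltrating lymphocytes were available for KG+ cells (2 libraries, KG+ 1 and KG+ 2) and KR+ cells (1 library), all from tumors labeled as treated with an isotype control. The methods describe the sort as live CD45+ Ter119- cells with little or no CD11b. The labels name 2 biological replicates of KG+ cells but do not say how many mice each library holds, so p-values refer to libraries and not to mice. Each library supplied both groups, and p-values measure how the difference within a library varies over these libraries, KG+ and KR+ together. With 1 KR+ library, levels in KR+ and KG+ cells were not tested against each other. The color gives only whether a cell was present for 48 h, not when it was stimulated.

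The libraries held 87193225 UMIs in 10498 barcodes (KG+ 1), 129438292 UMIs in 12327 barcodes (KG+ 2) and 175848894 UMIs in 11956 barcodes (KR+). The libraries shared between 20 and 36 barcodes per pair. NK cells passing the gate numbered 2562 in KG+ 1, 2512 in KG+ 2 and 2703 in KR+, and the 4-gene-high cells numbered 256, 251 and 270. Their median depth was 5216.5, 6984 and 9697 UMIs, against 5810, 7330 and 12973 UMIs in 4-gene-negative cells of the same libraries. The 4-gene-high cells were therefore the shallower group in each library, and their median mitochondrial share was higher (3.12%, 2.73% and 2.57%, against 2.73%, 2.62% and 2.39%).

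*Ccl1* encodes a chemokine that attracts cells bearing CCR8, and *Crtam* encodes an adhesion receptor that appears on T and NK cells after stimulation. *Cd83* encodes a surface glycoprotein best known from mature dendritic cells, and *Nfkbid* encodes IκBNS, a nuclear member of the IκB family. NF-κB factors wait in the cytoplasm bound to inhibitors such as IκBα. After receptor signaling they enter the nucleus and turn on cytokines, chemokines, survival genes and their own inhibitors, which close the loop. NK cells engaged through activating receptors or by IL-12, IL-15 and IL-18 release chemokines, IFN-γ and GM-CSF within hours, and immediate early factors of the FOS, JUN, EGR and NR4A families mark such signals.

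In GRCm38 (mm10), the GENCODE annotation places *Ccl1* at chr11:82176657-82305690 on the minus strand, *Crtam* at chr9:40969691-41004628 on the minus strand, *Cd83* at chr13:43784775-43803132 on the plus strand and *Nfkbid* at chr7:30421732-30428746 on the plus strand. The promoters of 2 ranking genes and of 2 NF-κB targets that moved with them, each of which holds a match, are shown because NF-κB binds motifs of the kB type, here written as GGG, then any 5 bases, then CC. Each RefSeq sequence (GRCm38) runs from 250 bases before to 50 bases after the transcription start, 5′ to 3′ on the gene's own strand, and capitals mark matches to this kB-type motif on either strand, overlapping matches joined. Their positions are chr11:82179763-82180062 (*Ccl1*, minus strand), chr7:30421481-30421780 (the first *Nfkbid* promoter, plus strand), chr12:55492598-55492897 (*Nfkbia*, minus strand) and chr9:21015690-21015989 (*Icam1*, plus strand).
Ccl1: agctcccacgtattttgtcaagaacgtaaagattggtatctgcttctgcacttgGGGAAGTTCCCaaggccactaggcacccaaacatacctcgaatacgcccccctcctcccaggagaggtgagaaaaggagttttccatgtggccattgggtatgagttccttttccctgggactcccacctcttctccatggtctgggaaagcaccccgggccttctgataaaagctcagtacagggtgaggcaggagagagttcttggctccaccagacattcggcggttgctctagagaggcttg
Nfkbid: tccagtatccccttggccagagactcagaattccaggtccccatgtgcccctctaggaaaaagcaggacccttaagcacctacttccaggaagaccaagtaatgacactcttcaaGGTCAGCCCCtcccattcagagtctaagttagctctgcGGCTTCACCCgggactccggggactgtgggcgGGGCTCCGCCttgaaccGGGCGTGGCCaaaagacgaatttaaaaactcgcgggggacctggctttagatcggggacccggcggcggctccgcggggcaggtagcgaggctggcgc
Nfkbia: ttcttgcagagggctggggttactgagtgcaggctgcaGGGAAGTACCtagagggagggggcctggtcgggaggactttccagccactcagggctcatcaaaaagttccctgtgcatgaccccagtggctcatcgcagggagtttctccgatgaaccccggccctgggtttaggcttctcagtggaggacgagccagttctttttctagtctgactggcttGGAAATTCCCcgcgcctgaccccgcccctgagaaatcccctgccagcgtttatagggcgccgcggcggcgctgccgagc
Icam1: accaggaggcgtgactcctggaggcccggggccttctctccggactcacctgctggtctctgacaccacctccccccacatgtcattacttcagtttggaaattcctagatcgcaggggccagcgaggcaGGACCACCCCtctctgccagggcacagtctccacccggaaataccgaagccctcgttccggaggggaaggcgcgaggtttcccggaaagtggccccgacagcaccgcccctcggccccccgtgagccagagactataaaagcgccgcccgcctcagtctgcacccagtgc
The *Ccl1* promoter held an overlapping pair of matches in a palindromic stretch, *Nfkbid* 4 matches, *Nfkbia* 2 and *Icam1* 1. The promoters of *Ccl3*, *Xcl1* and *Gadd45b*, which also rose, held 0 matches to it. The motif is short and common, since 50.8% of 32851 promoters of this length held it. By gene, 14 of 19 matched genes of a list of NF-κB subunits, inhibitors and targets held it (73.7%), against 53.5% of all 27025 genes. The AP-1 motif TGANTCA was found in 6 of the 19 (31.6%), against 8.97% of all genes. Of 6 matched chemokine genes 4 (66.7%) held the kB-type motif. Among 18 matched immediate early genes, 14 (77.8%) held the kB-type motif and 1 (5.56%) held TGANTCA. The share holding the kB-type motif was 78.6% (357 of 454) for matched genes that rose in 4-gene-high cells both with and without the class II-positive cells described below, and 71.3% (149 of 209) for genes that fell in both. These matches are descriptions of sequence, and no binding was measured. *Crtam* and *Cd83* had no entry in the promoter table.

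*Nfkbid* was the ranking gene found in the most 4-gene-high cells. It was detected in 93.4%, 90.8% and 77.8% of 4-gene-high cells (KG+ 1, KG+ 2 and KR+, the order used throughout). *Cd83* was detected in 32.8%, 44.6% and 49.6%, *Crtam* in 16.8%, 28.3% and 37.0%, and *Ccl1* in 5.08%, 10.8% and 16.3%. *Nfkbid* gave the most UMIs of the 4 genes in 193, 159 and 122 of the cells, whereas *Ccl1* led in 10, 9 and 33. Counted by UMIs, *Nfkbid* led the ranking genes in KG+ 1 and *Ccl1* in KG+ 2 and KR+. In KG+ 2 this order rests on 1 cell, which held 477 of the 904 *Ccl1* UMIs. Without it *Ccl1* had 427 UMIs, below *Nfkbid* (799) and *Cd83* (545). *Nfkbid* gave 55.9%, 32.6% and 19.4% of the UMIs of the 4 genes in these cells, *Ccl1* 13.7%, 36.7% and 41.4%, *Cd83* 24.5%, 22.4% and 28.1%, and *Crtam* 5.84%, 8.25% and 11.1%. A single gene of the 4 was detected in 60.9%, 42.2% and 41.9% of the cells. At least 2 of the 4 were detected in 39.1%, 57.8% and 58.1%. None of *Crtam*, *Ccl1* and *Cd83*, the genes of the working label, was by itself detected in most of these cells, and the libraries hold no measure of when a cell was activated.

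**Figure D1:**
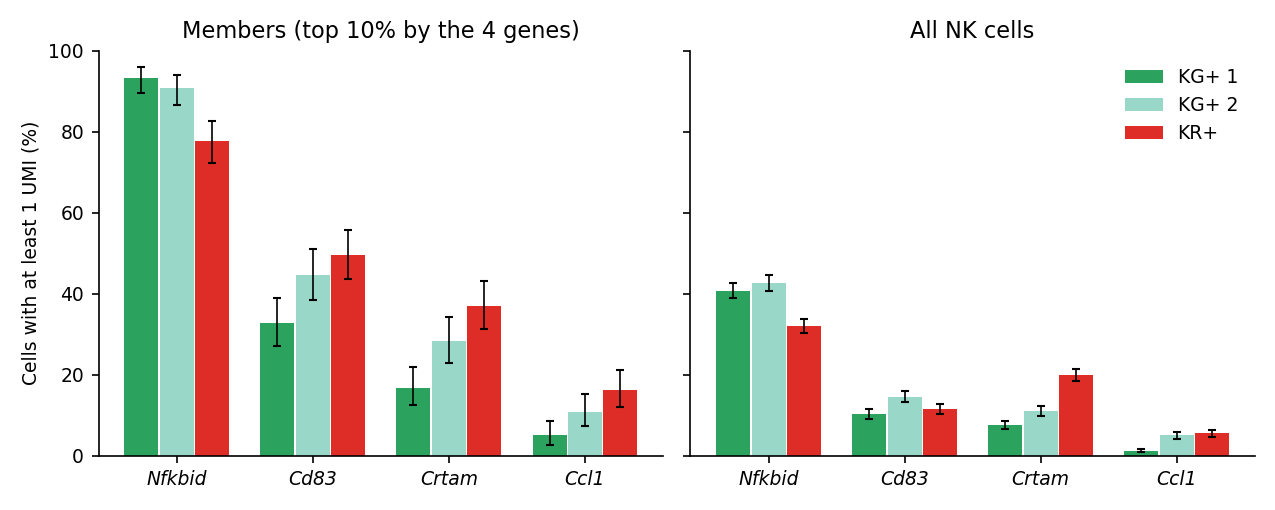
Percent of cells with at least 1 UMI of *Nfkbid*, *Cd83*, *Crtam* and *Ccl1* in 4-gene-high cells and in all NK cells of each library, with 95% exact binomial intervals that cover counting error only. *Nfkbid* was found in 77.8% to 93.4% of 4-gene-high cells, and *Ccl1* in 5.08% to 16.3%.

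The threshold was low in UMIs. The lowest 4-gene-high cell held 5.74, 4.29 and 2.93 UMIs of the 4 genes per 10000, and the highest cell below the limit 5.71, 4.28 and 2.93. The median 4-gene-high cell had 5 UMIs of the 4 genes in each library, and 19, 24 and 47 of them had 2 or fewer. *Ccl1* was the most unequal of the 4 genes. The 10 NK cells with the most *Ccl1* held 91.0%, 86.7% and 59.9% of all NK *Ccl1* UMIs, and the highest single cell held 50, 477 and 204. In all NK cells *Ccl1* was found in 1.17%, 5.02% and 5.48%. In B cells (at least 1 UMI each of *Cd79a* and *Ms4a1*, 0 of *Cd3e* and *Ncr1*), which should lack it, *Ccl1* was found in 0 of 163 cells in KG+ 1 (upper 95% exact limit 2.24%) and in 6 of 81 (7.41%) in KG+ 2, at a median depth of 4946 UMIs in KG+ 2 against 7979 UMIs in NK cells. The share of NK cells with *Ccl1* in KG+ 2 was therefore not above the background in B cells. In KG+ 1 the NK share (1.17%) lay below the upper limit in B cells (2.24%). KR+ held 2 B cells, too few to give a background.

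Some 4-gene-high cells also carried transcripts of antigen-presenting cells. At least 3 UMIs of the MHC class II genes *Cd74*, *H2-Aa*, *H2-Ab1* and *H2-Eb1* together were found in 24, 46 and 45 of the 4-gene-high cells (9.38%, 18.3% and 16.7%), against 18, 144 and 94 of the 4-gene-negative cells (1.38%, 12.8% and 7.04%). These class II-positive cells held 98.6%, 97.9% and 95.8% of the class II UMIs of 4-gene-high cells. The class II-positive 4-gene-negative cells held 59.7%, 49.0% and 70.7% of the class II UMIs of their group, and they carried fewer per cell. In KG+ 2, for example, 144 of them held 347 *Cd74* UMIs, against 3255 in 46 class II-positive 4-gene-high cells. The class II-positive 4-gene-high cells were deeper than the other 4-gene-high cells, with medians of 10011.5, 13253 and 16080 UMIs against 5087.5, 6707 and 9004 UMIs.

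The class II-positive cells had less of the NK receptor gene *Klrb1c* (109, 140 and 79.4 CPM, that is UMIs of the gene per 1000000 UMIs of the group) than the other 4-gene-high cells (392, 306 and 187 CPM). *Gzma*, which encodes granzyme A, was 1225, 2744 and 659 CPM in them and 9757, 7268 and 2861 CPM in the others. *Eomes* was also lower in each library, at 72.9, 83.1 and 56.9 CPM against 239, 232 and 136 CPM. *Klrd1* differed less (817, 541 and 782 CPM against 950, 676 and 1020 CPM), and *Prf1* and *Gzmb* varied by library. *Prf1*, encoding perforin, was 269.8, 697.6 and 750.1 CPM in the class II-positive cells and 960.7, 756.8 and 750.9 CPM in the others, and *Gzmb* was 995, 2661 and 4757 CPM against 5417, 4058 and 3900 CPM, so that it was higher in the class II-positive cells of KR+. UMIs of genes of other lineages also differed between libraries. *Lyz2*, a macrophage and granulocyte gene, was 47.4, 206 and 1.19 CPM, and the B cell gene *Cd79a* was 149, 91.6 and 1.19 CPM. *Fscn1*, a gene of migratory dendritic cells, was 69.3, 1.41 and 186 CPM. *Mcpt8*, a basophil gene, was 379 CPM in KG+ 2 and had no UMI in the others. These levels rest on few cells. All 269 *Mcpt8* UMIs lay in 1 of the 46 cells, *Lyz2* was found in 1, 8 and 1 of the class II-positive cells, *Fscn1* in 1, 1 and 5, and *Cd79a* in 3, 4 and 1. Whether these barcodes held 2 cells or 1 was not tested, and the counts of most lists are therefore given with and without them.

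Of 18 dendritic cell and macrophage genes listed, 9 passed the filter on low counts. Of these, *Fscn1*, *Ccl22* and *Lyz2* were not above its limit in all 3 libraries of 4-gene-negative cells, so that their call as higher is largely set by the filter, and 5 of the other 6 rose in 4-gene-high cells. The list's summed level was 2197, 3867 and 580 CPM against 124, 242 and 99.2 CPM, and *Cd74* was the most abundant. Without the class II-positive cells 6 were tested and 1, *Ccr7*, rose, but 4 of the 6 are the genes by which those cells were left out, so this count is partly set by the exclusion. No B cell gene of 7 passed the filter, but their summed level was 73.0, 69.2 and 1.15 CPM in 4-gene-high cells against 3.29, 3.51 and 0.543 CPM, and with no filter 6 of the 7 were called higher. Of 6 mast cell and basophil genes *Mcpt8* alone passed the filter, and it was called higher. *Mcpt8* was not above the limit in all 3 libraries of 4-gene-negative cells, so this call is largely set by the filter. In KR+ it was 0 against 1.68 CPM. The summed level of the 6 genes was 240 CPM against 9.59 CPM in KG+ 2 and 0 in 4-gene-high cells of the other libraries, and with no filter 4 of the 6 were called higher. The part of B cells and basophils in the results was not tested. Of 12 T cell genes 10 were tested, and *Cd3d*, *Cd3g* and *Trac* rose by 0.65, 0.78 and 0.41 on the log2 scale while *Cd28* fell by 0.44. When class II-positive cells were left out 9 were tested, 3 rose and none fell. On cells thinned to 2000 UMIs 8 were tested, with 0 higher and 0 lower. In cells with no UMI of 12 genes of other lineages 5 were tested, with 0 higher and 0 lower. The 12 genes were *Cd3e*, *Cd3d*, *Cd3g*, *Cd8a*, *Cd8b1*, *Cd4*, *Cd79a*, *Ms4a1*, *Lyz2*, *C1qa*, *C1qb* and *Flt3*. *Cd3d* and *Cd3g* could therefore not be called there, and this count is partly set by the exclusion. The summed T cell level was 1129, 1306 and 1061 CPM in 4-gene-high cells and 1268, 1313 and 988 CPM in 4-gene-negative cells, mostly *Trbc1*, and *Cd8b1* stayed at 3.65, 11.8 and 7.16 CPM under its gate. Neither of 2 tumor or stroma genes tested differed past the threshold. *Klrb1c* was detected in 74.6%, 74.9% and 67.8% of 4-gene-high and 85.7%, 83.3% and 88.5% of 4-gene-negative cells. These shares depend on depth, and the 4-gene-high cells were the shallower group. Without class II-positive cells its level was 392, 306 and 187 CPM in 4-gene-high and 432, 349 and 236 CPM in 4-gene-negative cells.

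Over all genes, 10305 passed the filter and 1072 differed (10.4%), of which 725 (7.04%) were higher and 347 (3.37%) lower in 4-gene-high cells. These calls come from edgeR's quasi-likelihood test on UMI sums per library and group, with the library as a block and a Benjamini-Hochberg adjusted p below 0.05. The median log2 fold change over all tested genes was -0.02. With DESeq2 the numbers were 460 higher and 114 lower. Without the class II-positive cells in either group, 1149 of 10018 genes differed (11.5%), 737 (7.36%) higher and 412 (4.11%) lower, and 834 genes were called the same way in both fits, which is 77.8% of the first list and 72.6% of the second. In what follows, log2 fold changes are from the fit with all cells, ± SD is the spread of the 3 within-library log2 ratios, and adjusted p-values are from this test.

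Each ranking gene was also examined after it had been taken out of the ranking, so that the cells were chosen by the other 3 genes. *Ccl1* was then 115, 245 and 242 CPM in the chosen cells and 5.01, 5.44 and 12.4 CPM in the cells with none of the other 3, a 24.96-fold difference (adjusted p = 8.57e-11). Most of this signal in KG+ 2 came from 1 class II-positive cell, with 477 of the 534 *Ccl1* UMIs of the chosen cells. Class II-positive cells held 35 of 180, 487 of 534 and 413 of 761 of these UMIs. Without them *Ccl1* was 109.7, 29.7 and 142.8 CPM against 5.01, 5.72 and 11.96 CPM (11.9-fold, adjusted p = 1.40e-09). *Cd83* was 101, 71.6 and 108 CPM against 19.7, 20.7 and 12.03 CPM (5.67-fold, adjusted p = 1.62e-10). Class II-positive cells held 34 of 150, 21 of 143 and 113 of 330 of the *Cd83* UMIs of the chosen cells, and without them it was 84.6, 74.7 and 85.1 CPM against 15.9, 13.7 and 10.2 CPM (6.40-fold, adjusted p = 1.08e-16). *Crtam* was 52.0, 56.7 and 57.7 CPM against 11.6, 14.5 and 16.6 CPM (3.76-fold, adjusted p = 2.76e-07). *Nfkbid* differed least, with 205, 116 and 70.3 CPM against 115, 79.9 and 32.6 CPM (1.75-fold, adjusted p = 1.53e-05). Without class II-positive cells the folds of *Crtam* and *Nfkbid* were 3.21 and 1.89 (adjusted p = 9.43e-08 and 3.47e-12). In every library the chosen cells were higher for each gene, and for *Ccl1*, *Cd83* and *Crtam* the groups did not overlap. Genes called higher in these fits made up 7.82%, 6.89%, 7.5% and 6.58% of those tested when *Ccl1*, *Cd83*, *Crtam* and *Nfkbid* were left out.

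Of 10 chemokine genes listed 9 passed the filter on low counts, and these 9 were called higher in 4-gene-high cells. The count is partly set by the filter, since *Cxcl2*, *Ccl22*, *Cxcl16* and *Ccl9* were not above its limit (1.63 CPM) in all 3 libraries of 4-gene-negative cells. The other 5, which were, had a median log2 fold change of 1.48. Without class II-positive cells 7 of 8 were called higher, with a median of 1.84. *Ccl3*, which encodes the chemokine MIP-1α, was 661, 497 and 92.5 CPM in 4-gene-high cells and 78.6, 91.6 and 8.15 CPM in 4-gene-negative cells. The ratio was 7.68-fold (log2 2.94 ± 0.53, adjusted p = 1.4e-09), and the lowest 4-gene-high library, KR+, only just exceeded the highest 4-gene-negative one. *Ccl4*, its neighbor on chr11, which encodes MIP-1β, was 3191, 2686 and 430.5 CPM against 555, 469 and 75.7 CPM (5.68-fold, log2 2.51 ± 0.01, adjusted p = 2e-12). The within-library ratios of *Ccl4* were nearly equal, whereas its level in KR+ 4-gene-high cells was below that of KG+ 4-gene-negative cells, so the groups overlapped across libraries. *Xcl1*, which encodes the ligand of XCR1 on type 1 conventional dendritic cells, was 3152, 4590 and 4963 CPM against 1344, 1634 and 1469 CPM (2.79-fold, log2 1.48 ± 0.26, adjusted p = 1.6e-09). *Xcl1* was highest in KR+ 4-gene-high cells, and no library overlapped.

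*Ccl5*, which encodes the chemokine RANTES, had 8735, 5621 and 881 CPM in 4-gene-high and 5475, 4541 and 321 CPM in 4-gene-negative cells (log2 0.79 ± 0.59, adjusted p = 0.00044). *Cxcl10*, which encodes a CXCR3 ligand, was 865.5, 1006 and 606 CPM against 530, 574 and 351 CPM (log2 0.76 ± 0.05, adjusted p = 1.1e-06). The 2 largest fold changes of the list went with the class II-positive cells. *Cxcl16* rose by 3.28 on the log2 scale with them, and without them its log2 fold change was 0.43 (adjusted p = 0.70). *Ccl22*, a dendritic cell chemokine, rose by 5.95 and was too low to be tested without them.

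Of cytokines and growth factors, 12 of 17 tested genes were higher and 1 lower. Of these, *Lif* and *Csf2* were not above that limit in all 3 libraries of 4-gene-negative cells, and the median log2 fold change of the other 15 was 0.79. The counts were 10 higher and 1 lower of 16 without class II-positive cells. *Ifng*, encoding IFN-γ, was 438, 674 and 237 CPM against 179, 193 and 52.9 CPM (3.34-fold, log2 1.74 ± 0.44, adjusted p = 5.2e-08). *Tnfsf9*, encoding the ligand of 4-1BB, was 42.6, 32.4 and 64.2 CPM against 5.11, 4.02 and 4.84 CPM (10.1-fold, log2 3.33 ± 0.40, adjusted p = 3e-09). *Csf2*, encoding GM-CSF, was 12.8, 24.98 and 56.1 CPM against 2.27, 2.37 and 0.889 CPM (19.4-fold, adjusted p = 3.7e-06), so its within-library ratio was largest in KR+. The groups did not overlap for any of these genes.

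*Tnfsf14*, encoding LIGHT, was 38.3, 21.9 and 16.9 CPM against 5.79, 4.64 and 2.47 CPM (log2 2.57 ± 0.30). *Areg*, encoding the epidermal growth factor receptor ligand amphiregulin, was 14.0, 48.2 and 21.5 CPM against 4.43, 8.46 and 4.30 CPM (log2 2.25 ± 0.44). *Lta* and *Tnf*, encoding lymphotoxin α and TNF, rose by 2.09 and 1.28. *Vegfa*, the gene of the angiogenic factor, rose less, from 284, 290 and 178 CPM to 533, 395 and 282 CPM (log2 0.66). *Flt3l*, whose product drives dendritic cell development, was the one gene that fell, with 42.6, 32.4 and 55.0 CPM in 4-gene-high cells and 79.5, 62.2 and 76.3 CPM in 4-gene-negative cells (log2 -0.74 ± 0.26, adjusted p = 0.00011). *Tnfsf11*, encoding RANKL, had a log2 fold change of 1.34 with all cells and 0.09 without class II-positive cells (adjusted p = 0.86).

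**Figure D2:**
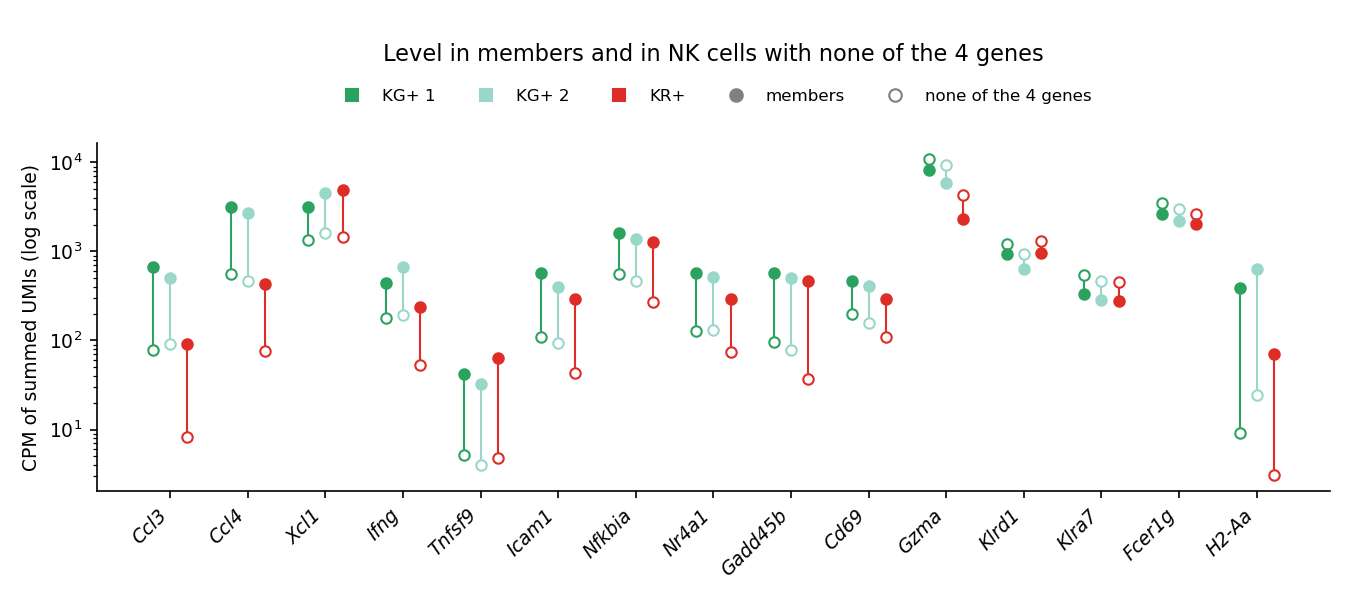
Level (CPM, log axis) of 15 genes in 4-gene-negative (open points) and 4-gene-high (filled points) NK cells of the 3 libraries. *Ccl3* ran from 8.15 to 91.6 CPM in 4-gene-negative and from 92.5 to 661 CPM in 4-gene-high cells, while *Gzma* and *Klra7* were lower in 4-gene-high cells of each library.

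The NF-κB list was higher almost as a whole. Of its 22 tested genes 20 rose and none fell (median log2 fold change 1.16), and without class II-positive cells 20 of 21 rose. *Bcl2a1a* was not above the filter's limit in every library of cells with no UMI of the ranking genes. Of the other 21 genes tested with all cells 19 rose, with a median of 1.05. Among the subunits, *Rel*, the gene of c-Rel, was 352, 335 and 249.5 CPM against 92.1, 115 and 64.4 CPM (3.48-fold, log2 1.80 ± 0.23, adjusted p = 2.8e-09). *Nfkb1*, encoding p105 and p50, was 438, 337 and 288 CPM against 184, 187 and 135 CPM (2.07-fold, log2 1.05 ± 0.20), and *Relb* and *Nfkb2* rose by 0.99 and 0.84. *Rela*, encoding p65, had 85.2, 70.1 and 52.1 CPM against 64.7, 62.2 and 41.9 CPM and did not pass the threshold (log2 0.28, adjusted p = 0.061). The groups were separate for *Rel* and *Nfkb1* and overlapped for *Rela*.

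The inhibitors moved in the same direction as the subunits. *Nfkbia*, encoding IκBα, was 1614, 1385 and 1282 CPM in 4-gene-high and 558, 468 and 269 CPM in 4-gene-negative cells (3.42-fold, log2 1.77 ± 0.41, adjusted p = 9.9e-09). *Nfkbiz*, encoding the nuclear IκBζ, was 604, 369 and 147 CPM against 143, 81.8 and 36.3 CPM (4.23-fold, log2 2.08 ± 0.08, adjusted p = 4.1e-10). Both were higher in every library without overlap, although *Nfkbiz* in KR+ 4-gene-high cells was close to its level in KG+ 1 4-gene-negative cells. *Nfkbie* and *Bcl3*, of the same family as *Nfkbid*, rose by 1.31 and 1.29. *Tnfaip3*, encoding the deubiquitinase A20, rose by 0.71 (453, 412 and 351 CPM against 296, 297 and 167 CPM).

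Of the target genes, *Icam1*, encoding the ligand of LFA-1, changed most among those with a high level. It was 567.5, 398 and 293 CPM against 110.5, 92.9 and 43.1 CPM (5.26-fold, log2 2.40 ± 0.33, adjusted p = 4.7e-10), and 2.54 on the log2 scale without class II-positive cells. The survival genes *Bcl2a1b* and *Bcl2a1d* rose by 2.07 and 2.26, *Bcl2a1b* from 96.5, 102 and 129 CPM to 454, 461 and 472 CPM. *Bcl2a1a* had the largest value of the list (log2 4.15) at no more than 10.1 CPM in any library. It was not above the filter's limit in all 3 libraries of 4-gene-negative cells, so its call as higher is largely set by the filter. The *Bcl2a1* genes are near-identical copies, and how their reads were split is uncertain. *Cflar*, encoding the caspase-8 inhibitor c-FLIP, had the smallest change among genes that passed (log2 0.40, adjusted p = 0.018), and *N4bp1* did not pass (log2 0.28, adjusted p = 0.12).

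Immediate early, EGR and NR4A genes rose in 19 of 21 cases tested, and none fell (median log2 fold change 0.80). When class II-positive cells were left out 20 of 21 rose. *Nr4a1*, encoding the nuclear receptor NUR77 that follows antigen receptor signals, was 572, 516 and 289 CPM against 128, 132 and 74.4 CPM (4.03-fold, log2 2.01 ± 0.11, adjusted p = 4.7e-10). *Egr2* and *Egr3*, zinc-finger factors downstream of calcium and NFAT, rose by 2.10 and 2.16 at low levels, *Egr3* being 18.9, 21.9 and 14.6 CPM against 1.93, 3.10 and 6.32 CPM. *Atf3*, a stress-induced repressor, rose by 1.68, *Nr4a3* by 1.19 and *Junb* by 0.86. *Klf6* had the smallest change that passed (log2 0.49, adjusted p = 0.012). *Jun* (log2 0.21, adjusted p = 0.32) and *Fosl2* (log2 0.21, adjusted p = 0.12) did not pass. *Jun* stood at 279, 287 and 301 CPM in 4-gene-high cells and 318, 277 and 175 CPM in 4-gene-negative cells, so only KR+ was clearly higher.

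Calcium, NFAT and MAPK feedback genes moved less. Of 21 tested, 8 rose and none fell (median log2 fold change 0.29), from *Irf4*, a factor induced by antigen receptor signals (log2 2.01, at most 9.20 CPM), to *Hspa5*, the endoplasmic reticulum chaperone BiP (log2 0.29). *Irf4* was not above the filter's limit in all 3 libraries of 4-gene-negative cells, so its call is largely set by the filter. Of the other 20 genes 7 rose, with a median of 0.27. *Bhlhe40*, a transcription factor needed for cytokine production in lymphocytes, rose by 1.00, and the MAPK phosphatase gene *Dusp1* by 0.85. Of 21 genes tested with class II-positive cells left out, 10 rose and 1 fell.

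Surface receptors of activation and costimulation changed in both directions, 11 of 22 higher and 2 lower, or 3 higher and 1 lower of 19 on cells thinned to 2000 UMIs. *Cd69*, the early activation marker that opposes tissue exit, was 462, 410 and 292 CPM against 199, 157 and 110 CPM (2.50-fold, log2 1.32 ± 0.11, adjusted p = 1.3e-08). *Il2ra*, encoding the α chain of the IL-2 receptor, was 52.9, 59.2 and 74.8 CPM against 20.6, 24.5 and 20.2 CPM (2.90-fold, log2 1.53 ± 0.33). Both were separate between the groups. *Tnfrsf9*, encoding 4-1BB, rose by 0.36 with overlapping levels (558, 576 and 786 CPM against 473, 422 and 582 CPM). *Icos*, a costimulatory receptor of the CD28 family, fell by 0.67, and *Ly6a* fell by 0.36. The largest values, for *Cd200* (log2 3.45) and *Sema7a* (log2 3.38), were of genes too low to be tested without class II-positive cells, and these 2 were also not above the filter's limit in all 3 libraries of 4-gene-negative cells.

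Cytokine feedback and survival genes included 12 of 18 that rose and 2 that fell. *Pim1*, a STAT5-induced kinase gene, was 1639, 1211 and 761 CPM against 559.5, 447 and 162 CPM (3.31-fold, log2 1.73 ± 0.43, adjusted p = 2.1e-08). *Bcl2l1*, encoding Bcl-xL, rose by 0.89, whereas *Bcl2* fell by 0.52 (386, 285 and 210.5 CPM against 519, 423 and 302 CPM). *Il12rb1*, a chain of the IL-12 receptor, fell by 0.76. *Gadd45b*, a stress sensor and NF-κB target outside these lists, was 580, 504 and 471 CPM against 96.7, 78.4 and 37.4 CPM (7.80-fold, log2 2.96 ± 0.59, adjusted p = 2.5e-09). *Gadd45g* was 120, 138.5 and 561 CPM against 59.4, 32.0 and 53.2 CPM, with by far its highest level in KR+ 4-gene-high cells. *Gadd45b* and *Gadd45g* were named after their values had been seen.

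Genes of growth and ribosome biogenesis rose in 9 of 24 cases and none fell, with a median of 0.18. The count was 4 of 24 without KG+ 2, 4 of 24 against all other NK cells or with 4-gene-high cells that held no *Ccl1*, and 3 of 23 on thinned cells. *Myc* led them, at 72.4, 55.7 and 48.7 CPM against 22.3, 15.7 and 13.9 CPM (3.39-fold, log2 1.76 ± 0.07, adjusted p = 2.7e-08), followed by the arginine transporter gene *Slc7a1* (log2 0.81) and the polyamine enzyme gene *Odc1* (log2 0.67). Of 18 glycolysis and hypoxia genes 2 were higher and 2 lower, or 2 higher and 6 lower without class II-positive cells (median log2 fold change -0.17). Without KG+ 1, and also without KG+ 2, the counts were 2 higher and 0 lower, and without KR+ 1 higher and 3 lower. *Hk2*, encoding hexokinase 2, rose by 1.31, while *Eno1* fell by 0.30 and *Aldoa* fell by 0.23. Of 16 cell cycle genes outside the gate, 1 rose (*Ccnd2*, encoding cyclin D2, log2 0.41) and 1 fell (*Mcm6*, fell by 0.31), and 2 rose and 1 fell of 15 when class II-positive cells were left out. Heat shock genes rose in 8 of 13 cases. The count was 10 without class II-positive cells and 11 with cells of 5000 to 15000 UMIs, but 5 against all other NK cells or with 4-gene-high cells that held no *Ccl1*, 4 of 11 in cells with no UMI of 12 genes of other lineages, and 3 on thinned cells. Among those that rose, log2 fold changes ran from *Hspa1b* (log2 0.76) to *Hsp90ab1* (log2 0.21). *Hspa1b* shares reads with its copy *Hspa1a*, and when cells with any UMI of 12 genes of other lineages were left out its log2 fold change was -0.01.

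Of 21 granule genes tested 8 were lower and 3 higher (median log2 fold change -0.24), or 7 lower and 3 higher without class II-positive cells. *Gzma* was 8334, 5861 and 2329 CPM in 4-gene-high cells and 10956, 9465 and 4361 CPM in 4-gene-negative cells (log2 -0.68 ± 0.26, adjusted p = 3.1e-05), and -0.45 without class II-positive cells. *Gzmb*, encoding granzyme B, fell by 0.25 (adjusted p = 0.0051). *Gzmg* and *Gzmf* had the largest decreases of all named genes. *Gzmf* was 5.47, 27.6 and 459 CPM against 80.8, 216 and 1177 CPM (log2 -2.14 ± 1.24, adjusted p = 1.2e-05). *Gzmg* had 0 UMIs in KG+ 1 4-gene-high cells and was 1.31 and 54.7 CPM in the others, against 4.54, 54.0 and 271 CPM (log2 -2.70, adjusted p = 1e-06). These granzymes are close paralogs in 1 cluster, so their counts may be shared.

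*Gzmc*, of the same cluster, did not pass the threshold (2484, 3316 and 13631 CPM against 2104, 3394 and 13906 CPM, log2 0.04, adjusted p = 0.72), and neither did *Prf1*, encoding perforin (845, 738 and 751 CPM against 771, 747 and 769 CPM, log2 0.01, adjusted p = 0.94). *Serpinb6b*, encoding an inhibitor of granule proteases, was the gene of this list that rose most, to 824, 788 and 610 CPM from 542, 563 and 412 CPM (log2 0.54).

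NK receptor genes were lower in 9 of 21 cases and higher in 1, with a median of -0.29. Without class II-positive cells 6 were lower and 2 higher, with a median of -0.10. On cells thinned to 2000 UMIs 3 were lower and none higher, and in cells with no UMI of 12 genes of other lineages 5 were lower and 1 higher. *Klra7*, encoding the inhibitory receptor Ly49G2, was 334.5, 288 and 276 CPM against 543, 464 and 454 CPM (log2 -0.72 ± 0.02, adjusted p = 5.1e-06), and -0.52 without class II-positive cells. *Fcer1g*, the adaptor gene of CD16 and NKp46, was 2613, 2189 and 2036 CPM against 3486, 2970 and 2623 CPM (log2 -0.42 ± 0.04, adjusted p = 3.7e-05). *Klrd1*, encoding CD94, fell by 0.47. *Klrc2*, encoding NKG2C, was the one gene that rose (log2 0.34, adjusted p = 0.026), and *Klrk1*, encoding NKG2D, did not pass (log2 -0.12, adjusted p = 0.27). Ly49 genes are similar in sequence, so values for single members are uncertain.

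**Figure D3:**
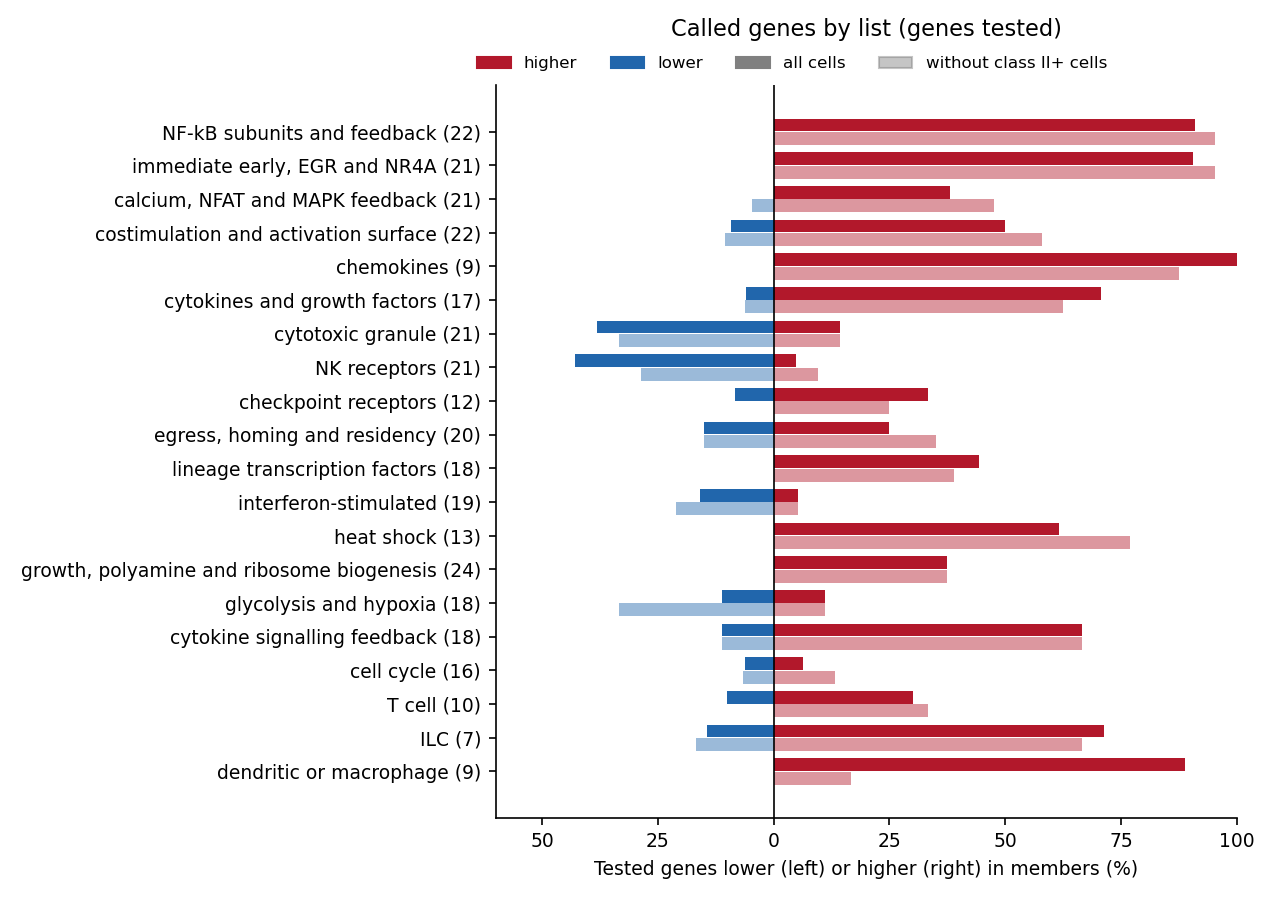
Percent of the tested genes of each list that were higher (right) or lower (left) in 4-gene-high NK cells, with all cells (dark) and without class II-positive cells (pale). The NF-κB list reached 20 of 22 higher, and the NK receptor list 9 of 21 lower with all cells and 6 without class II-positive cells.

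Of 20 homing genes 5 were higher and 3 lower, or 7 higher and 3 lower without class II-positive cells. *Ccr7*, which guides cells to lymphatics and lymph nodes, was 104, 74.9 and 95.7 CPM against 11.9, 27.7 and 8.10 CPM (log2 2.67 ± 1.12, adjusted p = 4e-06), and its log2 fold change was 1.56 without class II-positive cells. *Cxcr4* and *Klf2* rose by 0.70 and 0.54. *Ccr2*, the receptor for CCL2, fell by 0.64 (135, 171 and 168 CPM against 239, 281 and 219 CPM), *S1pr4* fell by 0.74, and *Itga1*, encoding CD49a, fell by 0.72 (15.8, 21.9 and 46.7 CPM against 31.1, 36.6 and 69.3 CPM). For *Itga1* the within-library decrease was present in all 3 libraries although KR+ cells had the highest level in both groups.

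Among lineage factors 8 of 18 rose and none fell, or 7 of 18 without class II-positive cells. *Rora* was 63.9, 101 and 70.8 CPM against 29.9, 48.6 and 32.1 CPM (log2 1.08 ± 0.04, adjusted p = 7.4e-07), and *Gata3* 133, 99.5 and 74.5 CPM against 68.9, 70.2 and 39.2 CPM (log2 0.78 ± 0.25). Both are known from innate lymphoid cells (ILCs) as well as NK cells. *Eomes*, a defining factor of conventional NK cells, did not pass (211, 186 and 117 CPM against 222, 209 and 95.6 CPM, log2 0.00, adjusted p = 1.0), nor did *Tbx21*, encoding T-bet (log2 0.26, adjusted p = 0.078). Of 7 ILC marker genes tested, 5 rose (*Rora*, *Gata3*, *Il7r*, *Tmem176a* and *Tmem176b*) and *Icos* fell, and their summed level was 355, 380 and 292 CPM against 223, 278 and 206 CPM, *Gata3* being the most abundant in KG+ 1 and KR+. With class II-positive cells left out 4 of 6 rose, and *Il7r* had a log2 fold change of 0.57 in place of 0.99. On cells thinned to 2000 UMIs 2 of 6 ILC genes were higher and 0 lower. The part of ILCs in the result was not tested. Of 12 checkpoint genes 4 rose and 1 fell, and 3 rose and none fell without class II-positive cells. *Havcr2* was not above the filter's limit in all 3 libraries of 4-gene-negative cells, and of the other 11 genes 3 rose.

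Because 4-gene-high cells were the shallower group, the lists were also counted after a random draw of 2000 UMIs from each cell, with the ranking repeated on the drawn UMIs. Ties in drawn UMIs were broken by the share of the 4 genes before the draw, so the choice of cells still used the undrawn counts. Of 8537 genes tested 276 were then higher and 106 lower. The NF-κB list had 16 of 21 higher and the immediate early list 17 of 21. Chemokines had 5 of 7 higher, cytokines and growth factors 6 of 16 higher and 1 lower, cytokine feedback genes 8 of 18 higher and 1 lower, and calcium, NFAT and MAPK feedback genes 6 of 19 higher. Lineage factors had 3 of 18 higher, checkpoint genes 0 of 11 by edgeR (2 at an unadjusted p below 0.05), homing genes had 5 higher and 2 lower of 20, and glycolysis genes 1 higher and 4 lower of 17. Granule genes had 3 higher and 8 lower of 21. Fewer UMIs and the new choice of cells both enter these counts. In cells with no UMI of 12 genes of other lineages, lineage factors had 4 of 17 higher and checkpoint genes 1 of 11.

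Named by size alone, the 12 largest increases among genes above 20 CPM with the same sign in each library were *Plbd1*, *Cxcl9*, *H2-Aa*, *Marcks*, *Il1b*, *H2-Eb1*, *Tbc1d4*, *Ifi205*, *Csf2*, *Il4i1*, *Cd74* and *H2-Ab1*. They ranged from 3.76 (*H2-Ab1*) to 5.39 (*Plbd1*) on the log2 scale. In KR+ 4-gene-negative cells *Tbc1d4*, *Ifi205* and *Csf2* were at 0.692, 0.543 and 0.889 CPM, *Plbd1* had 1 UMI and *Cxcl9* had 0. These genes were thus not above the filter's limit of 1.63 CPM in all 3 libraries of 4-gene-negative cells. Their calls as higher are largely set by the filter. Without class II-positive cells 7 of the 12 could be tested and 2 rose, *Csf2* (log2 3.53) and *Il4i1* (log2 2.82), while *Il1b* had a log2 fold change of -0.26. *Cd74*, *H2-Aa*, *H2-Ab1* and *H2-Eb1* are among the 7, and since cells were left out by their UMIs of these 4 genes, their values in that fit are limited by the exclusion itself. The 12 largest decreases, *Gzmg*, *Gzmf*, *Lzts1*, *Spsb1*, *Tmsb15a*, *Tmem37*, *Chst12*, *Osbpl1a*, *Abi3*, *Gpr160*, *Endod1* and *Glrx*, ranged from -2.70 to -0.80, and all 12 were also lower without these cells. *Spsb1*, whose product binds targets for ubiquitination, was 17.0, 25.4 and 27.8 CPM against 55.3, 62.7 and 56.5 CPM (log2 -1.29 ± 0.33, adjusted p = 2.6e-06).

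Without class II-positive cells, a ranking made after the values had been seen was led by *Tnfsf9* (log2 3.34), *Ccl3* (3.14), *Gadd45b* (3.08), *Tnfsf14* (2.77), *Ccl4* (2.75), *Tagap* (2.62) and *Icam1* (2.54). Besides these, it held *Bcl2a1d*, *Nfkbiz*, *Nr4a1*, *Areg*, *Ifng* and *Mir155hg*, the host transcript of miR-155 (log2 1.90). Over all genes, the 3 values of 4-gene-high cells lay above the 3 values of 4-gene-negative cells for 736 genes (7.14%) and below them for 661 (6.41%).

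The levels did not follow the ranking evenly over its range. NK cells between the groups were split at the middle of their ranking into a lower and an upper class. *Ccl3* in KG+ 1 was 78.6 CPM in 4-gene-negative cells, 44.5 in the lower class, 178 in the upper class and 661 in 4-gene-high cells. In KG+ 2 the values were 91.6, 60.0, 209 and 497 CPM, and in KR+ 8.15, 1.66, 30.8 and 92.5 CPM. *Ccl3* was thus lowest in the lower class in each library. Cells of the lower class were the deepest, since a single UMI of the 4 genes gives a small share in a deep cell, with medians of 7988, 10332 and 23975 UMIs. *Xcl1* increased over all 4 classes, with 1344, 1663, 2061 and 3152 CPM in KG+ 1 and 1469, 1589, 2586 and 4963 CPM in KR+. *Nfkbia* in KG+ 1 was 558, 625, 1219 and 1614 CPM.

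**Figure D4:**
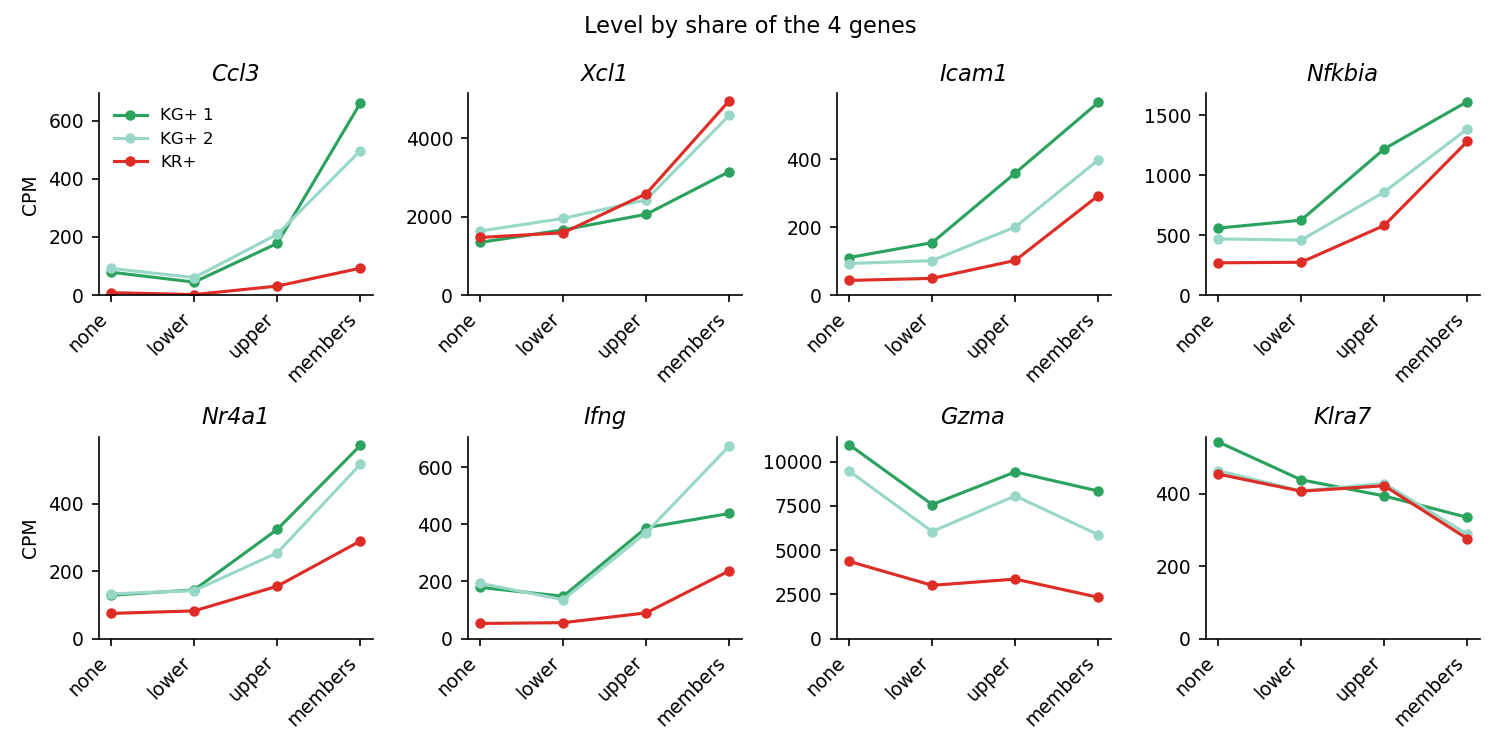
Level (CPM) of 8 genes in 4-gene-negative cells, the lower and upper classes of the ranking and 4-gene-high cells, 1 line per library. *Ccl3* was lowest in the lower class of each library (44.5, 60.0 and 1.66 CPM) and *Xcl1* increased to 3152, 4590 and 4963 CPM in 4-gene-high cells.

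The 4-gene-high cells differed by the gene that led their ranking, given here as levels with no test because the classes are small and chosen on expression. *Xcl1* was higher in cells led by *Crtam* (4745, 7897 and 11467 CPM in 2, 14 and 23 cells) than in cells led by *Nfkbid* (3306, 3980 and 3380 CPM in 193, 159 and 122 cells) or *Cd83* (2406, 2436 and 3598 CPM). *Tnfrsf9* was also higher in cells led by *Crtam* than in those led by *Nfkbid*, with 1793, 1361 and 1016 CPM in *Crtam*-led and 489, 389 and 384 CPM in *Nfkbid*-led cells. *Ccl3* was 967, 806 and 97.6 CPM in *Nfkbid*-led and 64.1, 126 and 32.1 CPM in *Ccl1*-led cells. *Gzma* was highest in *Nfkbid*-led cells (11657, 8998 and 4460 CPM) and low in *Ccl1*-led cells (1635, 1333 and 1206 CPM). *H2-Aa* lay mainly in *Cd83*-led cells (1431, 1996 and 173 CPM) and was 0, 30.3 and 2.57 CPM in *Ccl1*-led cells. *Nr4a1* was 620, 623 and 446 CPM in *Nfkbid*-led and 244, 141 and 171 CPM in *Ccl1*-led cells.

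Detection of the ranking genes was also compared pair by pair, as a description that depth contributes to. Of NK cells with *Ccl1*, 23.3%, 23.8% and 33.1% also had *Crtam*, against 7.31%, 10.4% and 19.2% of cells without *Ccl1*. The cells with *Ccl1* were deeper, at medians of 8785.5, 10979.5 and 23420 UMIs against 6077.5, 7879.5 and 14548 UMIs. Of cells with *Cd83*, 57.3%, 57.5% and 53.4% had *Nfkbid*, against 38.9%, 40.1% and 29.1% of cells without. *Ccl1* and *Nfkbid* did not go together in KR+, where 30.4% of cells with *Ccl1* and 32.0% of cells without it had *Nfkbid*, although the former were deeper. In KG+ 1 and KG+ 2 these shares were 50% and 51.6% with *Ccl1* and 40.7% and 42.2% without.

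To ask which changes were shared with T cells, the same ranking was applied to CD8 T cells of the same libraries. It gave 214, 272 and 312 4-gene-high CD8 T cells and 1086, 1166 and 1815 without any of the 4 genes. The ranking genes differed in level between the cell types. *Ccl1* was 152, 260 and 115 CPM in all CD8 T cells and 14.1, 41.8 and 33.2 CPM in all NK cells. In CD8 T cells *Nfkbid* was below *Ccl1* in CPM in each library. *Nfkbid* was still found in more CD8 T cells (35.8%, 37.1% and 18.6%) than *Ccl1* (10.2%, 19.3% and 17.9%). Whether this makeup of the ranking set the differences below was not tested. In CD8 T cells 1427 of 10441 genes differed (13.7%), 806 (7.72%) higher and 621 (5.95%) lower. Of the genes called in NK cells 1034 were tested in CD8 T cells, where 469 were called in the same direction and 18 in the opposite one. The difference between the changes passed for 255 of 11050 genes (2.31%), 196 with NK above CD8 T cells and 59 below, and the count was 9 without KG+ 1, 49 without KG+ 2 and 651 without KR+. The NF-κB list rose in CD8 T cells too, 20 of 22 genes with a median of 1.04, and the difference passed for 2 of 23, *Icam1* and *Tnip3*. It passed for 0 genes of the list without KG+ 1 and for 1 without KG+ 2. Without KR+ it passed for 5 with NK above CD8 T cells and 4 with NK below. With DESeq2 it passed for 4 of 22. *Icam1* rose by 2.40 in NK and 1.34 in CD8 T cells (difference 1.06, adjusted p = 0.0025). *Tnip3* was too low to be tested in NK cells alone (1.22, 20.2 and 1.72 CPM against 0.227, 0.929 and 0.346 CPM) and lost the difference without class II-positive cells (log2 0.38, adjusted p = 0.85).

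*Xcl1* rose more in CD8 T cells, by 3.38 against 1.48 (difference -1.89, adjusted p = 0.00013, and -2.08 without class II-positive cells). *Cd69* rose by 1.32 in NK cells and had a log2 fold change of 0.33 in CD8 T cells (difference 0.99, adjusted p = 0.0009). *Ccrl2*, encoding an atypical chemokine receptor and named after its value had been seen, was 153, 102 and 72.2 CPM against 43.3, 33.2 and 19.5 CPM in NK cells (log2 1.76), and had a log2 fold change of -0.16 in CD8 T cells (difference 1.91, adjusted p = 0.0009). *Ccl3* rose by 2.94 in NK and 4.05 in CD8 T cells, and the difference did not pass (adjusted p = 0.17).

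Of all lists, interferon-stimulated genes had the most members whose change differed between the cell types. In NK cells 1 of 19 rose (*Irf1*, log2 0.46) and 3 fell (*Isg20*, *Ifit2* and *Usp18*), with a median of -0.17. The number that fell depended on the setting. It was 4 without class II-positive cells, 7 in cells with no UMI of 12 genes of other lineages, 7 with no filter on low counts and 8 with cells limited to between 5000 and 15000 UMIs, but 2 on cells thinned to 2000 UMIs and 1 with DESeq2. In CD8 T cells 18 of 19 fell, with a median of -1.20. The difference passed for 14 of 19 genes, with NK above CD8 T cells in each (median 0.95), for 12 without class II-positive cells and for 13 with cells limited to between 5000 and 15000 UMIs. *Isg15*, encoding a ubiquitin-like modifier, was 580, 693 and 359 CPM in 4-gene-high and 540, 516.5 and 337.5 CPM in 4-gene-negative NK cells (log2 0.19, adjusted p = 0.16). In CD8 T cells it was 404, 382 and 420 CPM against 891, 838 and 705 CPM (log2 -1.003, difference 1.20, adjusted p = 0.0009). *Ifit3*, encoding an RNA-binding antiviral protein, was 62.0, 77.6 and 47.6 CPM against 109, 88.2 and 47.6 CPM in NK cells and 111, 96.2 and 76.7 CPM against 412, 319 and 199 CPM in CD8 T cells (difference 1.33, adjusted p = 0.0025). Without KG+ 1 the difference passed for 1 of the 19 genes, without KG+ 2 for 6 and without KR+ for 18, and it was positive for all 19 in each of these fits.

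**Figure D5:**
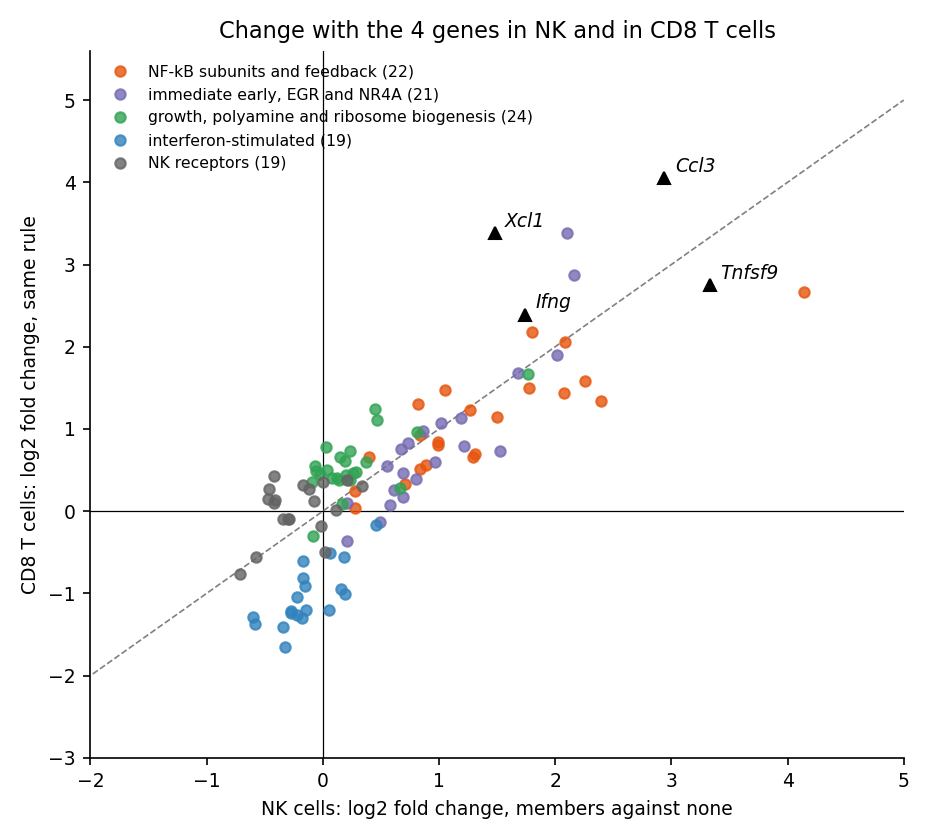
Log2 fold change of 4-gene-high against 4-gene-negative cells in NK cells and in CD8 T cells, 1 point per gene, for the NF-κB, immediate early, growth, interferon-stimulated and NK receptor lists, with the line of equality dashed and *Ccl3*, *Xcl1*, *Ifng* and *Tnfsf9* as triangles. The interferon-stimulated genes lie on the NK side of the line (median difference 0.95), while the NF-κB genes lie near it.

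The change between 4-gene-high and 4-gene-negative cells was also set side by side for KG+ and KR+ cells. With 1 KR+ library the KR+ change has no spread of its own. An interaction term that assumes it to vary like the KG+ libraries passed the threshold for 79 of 10305 genes (0.767%), 35 larger in KR+ and 44 smaller. The count was 25 without class II-positive cells, 5 with DESeq2 and 1 with cells limited to between 5000 and 15000 UMIs. The values that follow are therefore descriptions of the 3 libraries. The within-library log2 ratio of *Csf2* was 2.49 in KG+ 1, 3.38 in KG+ 2 and 5.94 in KR+. *Gadd45g* had 1.01, 2.11 and 3.3998, *Gadd45b* 2.58, 2.68 and 3.65, and *Nfkbia* 1.53, 1.56 and 2.25. *Gzma* had -0.39, -0.69 and -0.90, and *Egr3* 3.27, 2.81 and 1.22. For these 6 genes the KR+ ratio lay outside the KG+ ratios, and none of the 6 passed with DESeq2 or at limited depth, while *Egr3* also did not pass without class II-positive cells. Levels moved with color apart from the ranking, *Ccl3*, *Ccl4* and *Ccl5* being lower and *Gzmc* and *Gzmf* higher in the KR+ library in both groups, and color and library cannot be told apart.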

How the data were processed

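The authors deposited, per library, raw UMI counts per gene and cell barcode for 32285 genes, filtered to cell barcodes and not normalized. The submitters' processing notes name Cell Ranger 6.1.2 and mm10, while the matrix headers name another release of Cell Ranger. No value column was left without a sample (0 columns). Counts were used as deposited.

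Barcodes needed between 1000 and 6000 detected genes and a mitochondrial share below 7.5%, which left 10000, 11078 and 10865 cells. NK cells had at least 1 UMI of *Ncr1*, at most 1 each of *Cd3e* and *Cd8b1*, and at most 3 of *Mki67* and *Top2a* together. No doublet caller was run. UMIs were summed per library and group and tested in R 4.3.3 with edgeR 4.0.16 (TMM, filterByExpr, quasi-likelihood test, library as block), leaving out the 4 ranking genes and 5 gate genes. DESeq2 1.42.0 and other settings were alternatives. The fit was tested on simulated data. CD8 T cells (at least 2 UMIs each of *Cd8b1* and *Cd3e*, 0 of *Ncr1*) were ranked and fitted in the same way, with an interaction term for the difference. The members and gene lists were chosen with earlier results of these data known. Apart from the lists, genes were named as the 12 largest changes each way among those past the threshold, of 1 sign in all libraries and with at least 20 CPM in the higher group, leaving out clone-based names and genes not reported here, and as the 5 largest each way for the differences between cell types and colors. Intervals are 95% exact binomial and, like counts of 0, cover counting error only. Motifs were searched on both strands with Python 3.11.15.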

Additional observations from a re-analysis of the deposited data

Results flagged for a closer look

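The change between 4-gene-high and 4-gene-negative cells differed between NK and CD8 T cells, by the interaction test, for 10 genes named by size. NK cells were above CD8 T cells for *Tbc1d4* (log2 difference 3.48), *Cd86* (2.80), *Dpp4* (2.68), *Cd80* (2.63) and *Tnip3* (2.54). None of these 5 passed without class II-positive cells, where the values were -0.75, 0.37, 1.81, -5.36 and 0.38. NK cells were below CD8 T cells for *Osbpl1a* (-2.29), *Rab27b* (-2.12), *Kif15* (-2.003), *Xcl1* (-1.89) and *Cxxc5* (-1.59), with -2.32, -2.73, -2.22, -2.08 and -1.82 without class II-positive cells. *Osbpl1a* and *Rab27b* were too low to be tested in CD8 T cells alone, at no more than 3.18 and 2.83 CPM in either group of any library, and *Tnip3* was too low to be tested in NK cells alone, so these differences rest on an arm with few UMIs. *Cd80* and *Cd86* encode ligands of CD28 known from antigen-presenting cells, *Rab27b* a GTPase of granule release, and *Kif15* a mitotic kinesin. The ranking genes differed in level between NK and CD8 T cells, and whether that set these differences was not tested.

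For 10 genes named by size the gap between the change in KR+ and in KG+ NK cells passed the interaction test, in which KR+ is 1 library with no spread of its own, so a difference between the colors is not shown. The change was larger in KR+ for *Ccl22* (log2 difference 7.41), *Fscn1* (4.59), *Gzmg* (2.999), *Csf2* (2.82) and *Tbc1d4* (2.28), and smaller in KR+ for *Mcpt8* (-11.48), *Alox5ap* (-8.71), *Lyz2* (-5.74), *Olfr1369-ps1* (-5.21) and *Ifi205* (-3.83). Without class II-positive cells *Gzmg* was 3.62, *Csf2* 3.01 and *Olfr1369-ps1* -4.66, and the other 7 genes were too low to be tested. *Mcpt8* was 118 CPM in KG+ 2 4-gene-high cells and had 0 UMIs in those of KG+ 1 and KR+, so its value rests on 1 library. *Ccl22*, *Fscn1*, *Alox5ap*, *Lyz2* and *Ifi205* were at no more than 3.61 CPM in each 4-gene-negative library, so the size of their log2 differences depends on few UMIs.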

How the results depend on the processing

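The count of genes that differed (1072) was 574 with DESeq2, 67 with no replicate block (the fit without the library), 382 on cells thinned to 2000 UMIs and 613 in cells with no UMI of 12 genes of other lineages, and from 747 to 1115 with 1 library left out. The replicate numbers name libraries, and both groups come from each library, so the library was the block. Without it the NF-κB list had 8 and the immediate early list 3 genes past the threshold. The 255 differences between NK and CD8 T cells became 694 with no filter on low counts, and 9 to 651 with 1 library left out. The 79 genes past the interaction test of color became 5 with DESeq2, 1 with cells of 5000 to 15000 UMIs and 25 without class II-positive cells.

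With members chosen without *Ccl1*, 1266 genes differed, 631 with DESeq2 and 815 to 1233 with 1 library left out. Without *Crtam* these counts were 1198, 625 and 721 to 1320, without *Cd83* 1106 and 550 with DESeq2, and without *Nfkbid* 1223, 576 and 610 to 1575. Among 196 genes of the lists and named genes, 2858 values over 15 settings kept direction and call in 2359 cases and lost the call in 496. Signs changed for *Hspa1b* (-0.0113 in cells with no UMI of the 12 genes), *Il1b* (-0.26 without class II-positive cells), *Tnfsf10* (-0.0668) on thinned cells, and, for the difference from CD8 T cells without class II-positive cells, *Tbc1d4* (-0.75) and *Cd80* (-5.36). The causes were not tested. Leaving out class II-positive cells, or cells with *Ccl1*, was chosen after seeing the data.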
